A study of Saccharomyces cerevisiae with 18 samples.

Results

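The genes of the yeast proteasome were examined as a group of ORFs chosen by name. An ORF belonged to the group if its gene name was RPN, RPT, PRE or PUP followed only by digits, or was SCL1. These names matched 34 of 6330 ORFs, of which 1 was RPN4, the transcription factor of the group, which is given beside the others. Of the 33 other ORFs, 32 encode subunits and 1, RPN14, encodes a chaperone of assembly, so the word subunit holds for 32 of them. All 33, and RPN4, were among the 6013 ORFs kept after the 5% with the lowest input signal had been left out.

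The measurements were ChIP-seq signals over ORFs in budding yeast of the W303 background. The strains were Δhog1, which lacks the stress kinase Hog1, Δsko1Δhot1, which lacks the transcription factors Sko1 and Hot1, and wild type, which has all of these. Cells of each strain were either shocked for 5 min with KCl at 0.4 M in rich medium (osmotic shock) or given medium alone (mock-treated). Rpb3, an untagged subunit of RNA polymerase II (Pol II), was precipitated from all 3 strains, HA-tagged Hog1 was precipitated from Δsko1Δhot1 and wild type, and a mock IP with the HA antibody in untagged cells and an input were made from wild type. Each condition had 1 library, so no value has a replicate error and no difference could be tested. A change was therefore counted only from 2-fold on, and the counts describe these libraries.

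The signal of each ORF is divided by ORF length and by the library total, so a change shared by all ORFs is not visible. The supplement of the paper gives a range of reads for the Hog1 and transcription factor libraries. The read totals of the Rpb3, mock IP and input libraries are unknown. The deletions of HOG1 and HOT1 were visible in the Rpb3 libraries. Over HOG1 the signal was 1240 in shocked and 667 in mock-treated Δhog1 cells, against 20500 and 18700 in wild type, and over HOT1 it was 1060 and 569 in Δsko1Δhot1 cells, against 7820 and 6350 in wild type. SKO1 was not analysed here, so its deletion was not checked. The libraries differed in how far the strongest ORFs stood above the rest. In mock-treated cells the 99th percentile was 6.49 times the median in Δhog1, 8.10 times in Δsko1Δhot1 and 12.6 times in wild type, and in osmotic shock it was 8.31, 12.1 and 13.6 times.

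The proteasome degrades proteins tagged with ubiquitin. Its core particle is a barrel of alpha and beta rings, and the beta rings hold the active sites. A regulatory particle caps the barrel: its base holds the ATPases Rpt1 to Rpt6, which unfold substrates, and its lid holds Rpn11, which removes ubiquitin. In budding yeast most of these genes share a promoter element bound by Rpn4, an activator that the proteasome itself degrades, so that the supply of subunits and the activity of the proteasome are linked.

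Pol II was above the typical ORF over most proteasome ORFs, and the core particle carried more than the lid. In wild-type cells the median Rpb3 signal of the 33 ORFs was 16100 in osmotic shock and 13200 in mock-treated cells, while the median of all ORFs was 7330 and 7340. Of the 33, 31 lay above the median of all ORFs in shocked and 29 in mock-treated wild-type cells. In Δhog1 cells the members' median was 12900 in osmotic shock and 9970 in mock-treated cells, and 32 lay above the median of all ORFs in both. In Δsko1Δhot1 cells it was 14400 and 12800, and 32 and 30 ORFs lay above. The level was nevertheless close to that of input chromatin, whose median over all ORFs was 10200 in shocked and 9960 in mock-treated cells. Rpb3 exceeded input at 25 of the 33 ORFs in shocked and 16 in mock-treated Δhog1 cells, at 29 and 23 in Δsko1Δhot1 cells and at 27 and 21 in wild-type cells. Of all ORFs, 22.6% and 19.3% did so in Δhog1, 28.5% and 34.1% in Δsko1Δhot1, and 26.8% and 31.1% in wild type.

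**Figure D1:**
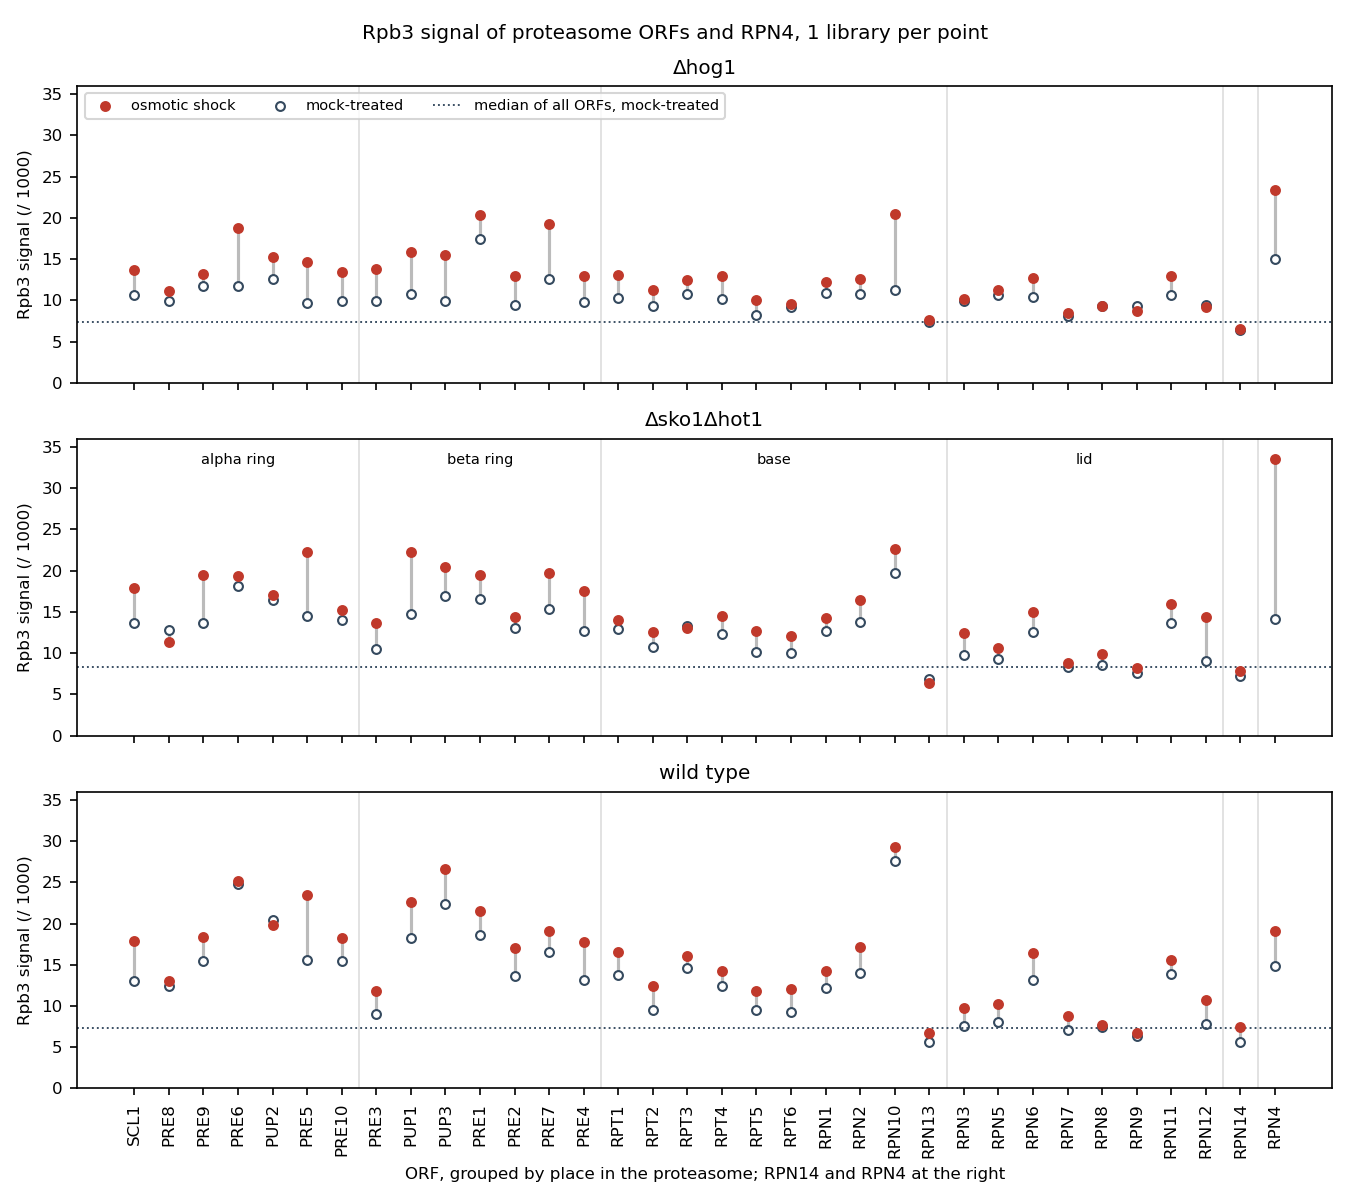
Rpb3 signal in units of 1000 (vertical axis, scaled to ORF length and library total) over each proteasome ORF and RPN4 (horizontal axis), with osmotic shock as filled points, mock-treated cells as open points and the median of all ORFs as a dotted line. Lid ORFs other than RPN6 and RPN11 sit near the dotted line in mock-treated wild-type cells, RPN10 and PRE6 stand highest there, and RPN4 in shocked Δsko1Δhot1 cells is at 33500.

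The order of the members was much the same in osmotic shock as in mock-treated wild-type cells. RPN10, a ubiquitin receptor, was the highest of the 33 in wild type, with 29300 in shocked and 27600 in mock-treated cells. It was followed in shocked cells by PUP3, a beta ring gene, at 26600, and in mock-treated cells by PRE6, an alpha ring gene, at 24800. RPN13, another ubiquitin receptor, was at 6700 in shocked and 5610 in mock-treated wild-type cells, and RPN9, a lid gene, was at 6710 and 6330. RPN14 was at 7390 and 5610. The rank correlation between the shocked and the mock-treated wild-type library was 0.97 over the 33 ORFs and 0.74 over all ORFs, as a description, since ORFs are not independent and each pair of values shares the length and sequence of the ORF. By place, the 14 core particle ORFs had a median of 18750 in shocked and 15550 in mock-treated wild-type cells, and the 8 lid ORFs had 9985 and 7695. In the lid, RPN6, at 16400 in shocked and 13200 in mock-treated wild-type cells, and RPN11, at 15600 and 13900, were above all 6 others, which reached at most 10700 and 8000.

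In osmotic shock, Pol II over proteasome ORFs was slightly higher than in mock-treated cells in all 3 strains, and no ORF of the 33 reached 2-fold in either direction. The median log2 fold of the 33 was 0.25 in Δhog1, 0.22 in Δsko1Δhot1 and 0.25 in wild type. The median of all ORFs was -0.05, -0.13 and 0.04. Of the 33, 31 had a fold above 0 in Δhog1, 30 in Δsko1Δhot1 and 32 in wild type, and 32, 32 and 31 were above the median fold of all ORFs. In the background, 1.01% of all ORFs were 2-fold higher and 0.0665% 2-fold lower in Δhog1, 6.19% and 7.97% in Δsko1Δhot1, and 4.49% and 7.73% in wild type, and at these shares 0 of 33 is not a result about the proteasome ORFs. At 1.5-fold, 3 of the 33 were higher in Δhog1, where 4.67% of all ORFs were, 2 in Δsko1Δhot1, where 11.1% were, and 0 in wild type, where 9.71% were, and none was 1.5-fold lower, against 1.35%, 16.2% and 14.5% of all ORFs. As a stand-in for the error of a single ORF, the SD over all ORFs of the log2 fold between the input libraries of shocked and mock-treated wild-type cells was 0.17. Of the 33, 21 lay above this size in Δhog1, where 21.6% of all ORFs did, 20 in Δsko1Δhot1, where 25.5% did, and 25 in wild type, where 35.2% did. None of the 33 lay below minus this size, where 30.7%, 45.8% and 31.2% of all ORFs did. The mock IP, an immunoprecipitation with no specific target, varied more, with an SD of 0.39 over all ORFs. There 10 of the 33 lay above 0.17, where 32.85% of all ORFs did, and 6 below minus 0.17, where 23.4% did. Both counts are near these shares. Of the 33, 9 lay above the SD of the mock IP in Δhog1, where 9.35% of all ORFs did, 5 in Δsko1Δhot1, where 16.1% did, and 4 in wild type, where 16.2% did. None lay below minus this SD, where 6.44%, 25.2% and 20% did. The proteasome ORFs were thus mostly on the higher side of the distribution in each library pair, by amounts under 2-fold. With input subtracted, where ORFs near input move easily, the median of the 33 was 0.90 in Δhog1, 0.43 in Δsko1Δhot1 and 0.42 in wild type, with 14, 11 and 5 of them 2-fold higher. The shares of all ORFs with input subtracted are not given here, so these counts cannot be set against the shares above.

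**Figure D2:**
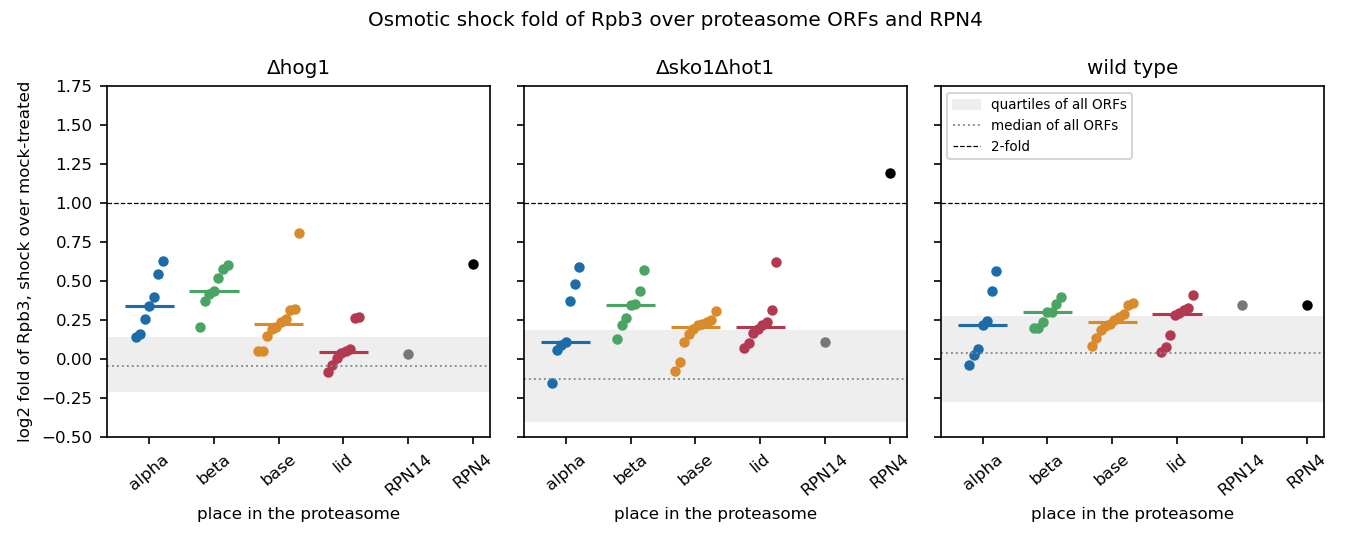
Log2 fold of Rpb3, osmotic shock over mock-treated, for each proteasome ORF by place in the complex, for RPN14 and for RPN4, in 3 strains; short bars are medians, the grey band spans the quartiles of all ORFs and the dashed line marks 2-fold. RPN4 in Δsko1Δhot1, at 1.19, is the only point past 2-fold, and the lid in Δhog1 has a median of 0.04.

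The 3 largest folds in Δhog1 belonged to other ORFs than those in Δsko1Δhot1 and wild type, which had PRE5 and RPN12 in common. In Δhog1 they were those of RPN10 (0.81), PRE6 (0.63) and PUP3 (0.60). RPN10 had 20500 in shocked and 11300 in mock-treated Δhog1 cells, PRE6 had 18800 and 11800, and PUP3 had 15500 and 9880. These are the 3 members with the highest Rpb3 signal in wild type, where their folds were 0.08, 0.02 and 0.24. In Δsko1Δhot1 the largest folds were those of the lid gene RPN12 (0.62), of the alpha ring gene PRE5 (0.59) and of the beta ring gene PUP1 (0.57), and in wild type those of PRE5 (0.56), the alpha ring gene SCL1 (0.43) and RPN12 (0.41). PRE5 had nearly the same fold in the 3 strains. It had 14600 in shocked and 9690 in mock-treated Δhog1 cells, 22300 and 14500 in Δsko1Δhot1 cells, and 23500 and 15600 in wild-type cells, with log2 folds of 0.55, 0.59 and 0.56. In the mock IP of wild type, which has no specific target, PRE5 had a log2 fold of 0.61, the highest of the members. The part of this in its Rpb3 folds was not tested. The lowest folds were those of RPN9 (-0.09), RPN12 (-0.04) and the lid gene RPN8 (0.01) in Δhog1, the alpha ring gene PRE8 (-0.15), RPN13 (-0.08) and the ATPase gene RPT3 (-0.02) in Δsko1Δhot1, and the alpha ring gene PUP2 (-0.04), PRE6 (0.02) and RPN8 (0.05) in wild type. All of these are smaller than the spread between the input libraries.

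By place in the complex, the folds were most even in wild type and least even in Δhog1. The median log2 fold of the 7 alpha ring ORFs was 0.34 in Δhog1, 0.11 in Δsko1Δhot1 and 0.22 in wild type, and that of the 7 beta ring ORFs, which include the catalytic subunit genes PRE2, PRE3 and PUP1, was 0.43, 0.34 and 0.30. The 10 base ORFs had 0.22, 0.20 and 0.24, and the 6 ATPase genes among them had 0.25, 0.22 and 0.27. The 8 lid ORFs had 0.04 in Δhog1, 0.21 in Δsko1Δhot1 and 0.29 in wild type. In Δhog1 the 14 core ORFs ranged from 0.14 to 0.63, and 6 of the 8 lid ORFs, all but RPN6 (0.27) and RPN11 (0.26), ranged from -0.09 to 0.06. Whether the places differ beyond the spread of repeated libraries cannot be said with 1 library per condition. In the mock IP, which has no specific target, the alpha ring also stood above the lid, with a median log2 fold of 0.24 against -0.22, and for RPN10, PRE6 and PUP3 the input log2 fold was 0.36, 0.33 and 0.27. The part of the mock IP values in the Rpb3 folds was not tested. With Rpb3 divided by wild-type input, the median fold of the 33 was 0.21 in Δhog1, 0.15 in Δsko1Δhot1 and 0.23 in wild type.

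The proteasome ORFs held a slightly larger share of the Rpb3 signal in osmotic shock. Their share of the summed signal over all kept ORFs was 0.696% in shocked and 0.598% in mock-treated Δhog1 cells, 0.688% and 0.599% in Δsko1Δhot1 cells, and 0.695% and 0.591% in wild-type cells. As deposited, the share was thus nearly the same in the 3 strains in each condition. In mock-treated cells it was close to that of input, and in osmotic shock it was higher than that of input. In the input libraries of wild type it was 0.580% and 0.565%, and in the mock IP it was 0.581% and 0.585%. With input subtracted the strains were apart: the share was 0.464% in shocked and 0.156% in mock-treated Δhog1 cells, 0.545% and 0.416% in Δsko1Δhot1 cells, and 0.576% and 0.410% in wild-type cells.

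RPN4 carried more Pol II in osmotic shock than in mock-treated cells in each strain, and passed 2-fold in Δsko1Δhot1. The Rpb3 signal over RPN4 was 23400 in shocked and 15000 in mock-treated Δhog1 cells, 33500 and 14100 in Δsko1Δhot1 cells, and 19100 and 14800 in wild-type cells. The mock-treated libraries of the 3 strains therefore lay close together, and the shocked ones were further apart. The log2 fold of osmotic shock was 0.61 in Δhog1, 1.19 in Δsko1Δhot1 and 0.35 in wild type, and 4.17%, 4.76% and 19.0% of all ORFs had a higher fold. In shocked cells the log2 fold of RPN4 was 0.28 for Δhog1 over wild type and 0.78 for Δsko1Δhot1 over wild type, and 24.3% and 3.11% of all ORFs had a higher one. In mock-treated cells it was 0.02 and -0.07. The fold of RPN4 was above the median fold of the 33 proteasome ORFs in all 3 strains, and in Δsko1Δhot1 it was above the highest of them, 0.62. The input signal over RPN4 was 11700 in shocked and 10600 in mock-treated cells, a log2 fold of 0.13. Divided by input, the fold of RPN4 in osmotic shock was 0.48 in Δhog1, 1.06 in Δsko1Δhot1 and 0.22 in wild type. The undivided fold in wild type, 0.35, was smaller than the SD of the mock IP fold over all ORFs, 0.39. With input subtracted, the fold of RPN4 in osmotic shock was 1.23 in Δhog1, 2.34 in Δsko1Δhot1 and 0.69 in wild type, which adds Δhog1 to the strains past 2-fold.

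The ORFs on both sides of RPN4 also differed between the strains. OSH2, an oxysterol-binding protein gene upstream of RPN4 on the same strand in the R64 reference, had 6060 in shocked and 6080 in mock-treated Δhog1 cells, 41800 and 6740 in Δsko1Δhot1 cells, and 11000 and 5320 in wild-type cells. Its log2 folds were 0.00, 2.47 and 0.93, so OSH2 was past 2-fold in Δsko1Δhot1, as RPN4 was. In Δhog1 cells OSH2 had nearly the same signal in both conditions while RPN4 was higher in osmotic shock. GPM2, on the other side, had 5500 in shocked and 6450 in mock-treated Δhog1 cells, 7810 and 5270 in Δsko1Δhot1 cells, and 6480 and 3970 in wild-type cells. The part of Pol II over OSH2 in the signal of RPN4 was not tested.

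**Figure D3:**
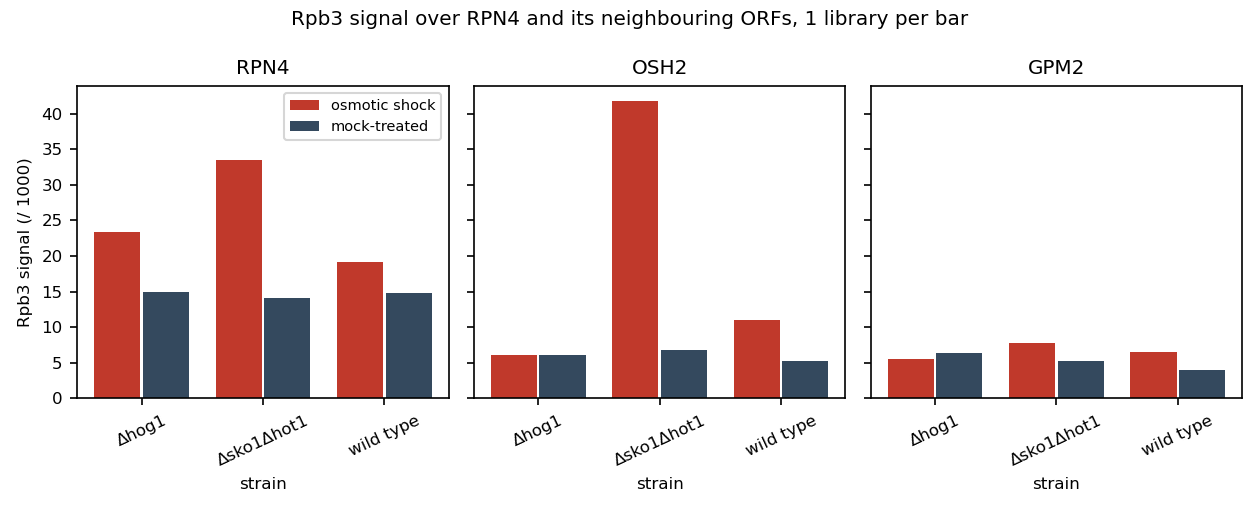
Rpb3 signal in units of 1000 (vertical axis) over RPN4 and the ORFs on its sides, OSH2 and GPM2, by strain, with osmotic shock left of mock-treated cells and 1 library per bar. OSH2 and RPN4 are both highest in shocked Δsko1Δhot1 cells, at 41800 and 33500, and OSH2 is flat in Δhog1 cells, at 6060 and 6080.

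The strains were then compared within a condition. In mock-treated cells, Pol II over the most occupied proteasome ORFs was lower in Δhog1 than in wild type, and that over the least occupied ones was not. The median log2 fold of Δhog1 over wild type was -0.29 for the 33 ORFs and 0.02 for all ORFs, and 24 of the 33 were below 0. Of the 33, 3 were 2-fold lower and none 2-fold higher, where 5.06% and 1.26% of all ORFs were. At 1.5-fold, 7 were lower and none higher, where 14.4% and 9% of all ORFs were. RPN10 had 11300 in Δhog1 and 27600 in wild type (log2 fold -1.22), PUP3 had 9880 and 22400 (-1.11), and PRE6 had 11800 and 24800 (-1.01). These 3 are the 3 members with the highest signal in mock-treated wild-type cells. That library is also the reference of the fold, so the order by level and the fold are not independent. At the other end, RPN9 had 9310 in Δhog1 and 6330 in wild type (0.49), the lid gene RPN5 had 10700 and 8000 (0.38), and the lid gene RPN3 had 9920 and 7590 (0.35). The alpha ring median was -0.59, with all 7 ORFs below 0, the beta ring median -0.40, the base median -0.22 and the lid median 0.27, with 6 of 8 above 0. With a pseudocount of 0.5 times the median input, 1 of the 33 was 2-fold lower instead of 3, and with input subtracted 20 were, with a median of -1.33. Shares of all ORFs under these settings are not given here, so these counts cannot be set against the shares above.

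**Figure D4:**
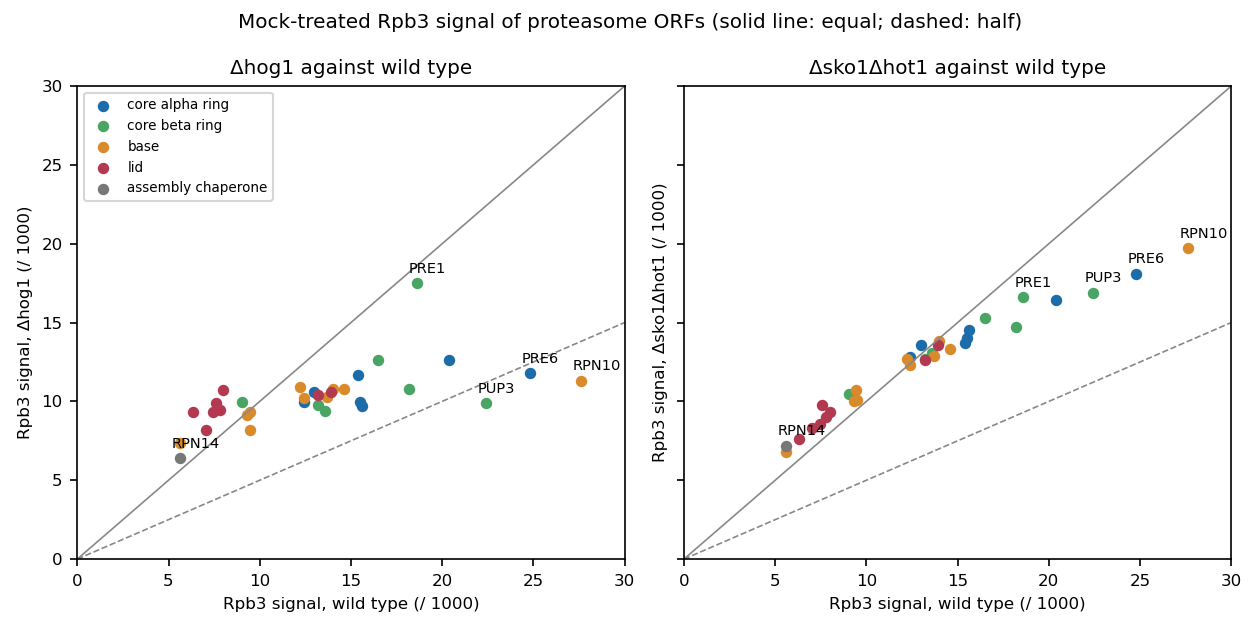
Rpb3 signal of the 33 proteasome ORFs in mock-treated deletion cells (vertical axes, units of 1000) against mock-treated wild-type cells (horizontal axes, units of 1000), coloured by place in the complex; the solid line marks equal signal and the dashed line a 2-fold lower signal in the deletion strain. In Δhog1 the highest ORFs after PRE1 are PUP2 and PRE7, at 12600, and RPN10, PRE6 and PUP3 lie below the dashed line.

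The members were also closer to each other in mock-treated Δhog1 cells. The SD of their log2 levels was 0.25 in Δhog1, 0.39 in Δsko1Δhot1 and 0.60 in wild type. In that library the range was narrower over all ORFs as well, with an SD of 0.68 in Δhog1, 0.82 in Δsko1Δhot1 and 1.09 in wild type. The part of this in the folds of the proteasome ORFs was not tested, and with 1 library of each strain a difference between strains and between libraries cannot be told apart. The exception was PRE1, a beta ring gene, which had 17500 in Δhog1, 16600 in Δsko1Δhot1 and 18600 in wild type. Its signal in Δhog1 was thus near that in wild type, while the other highly occupied ORFs were lower in Δhog1. PRE1 also had the highest input signal of the 33 in mock-treated cells, 13500 against a median of 10100. The part of input in its Rpb3 signal was not tested.

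The same comparison was made in osmotic shock. There the median log2 fold of Δhog1 over wild type was -0.26 for the 33 ORFs and -0.01 for all ORFs, 26 of the 33 were below 0, and none was 2-fold higher or lower, where 5.22% and 5.12% of all ORFs were. At 1.5-fold, none was higher and 2 were lower, where 11.8% and 11.6% of all ORFs were. The lowest folds were those of PUP3 (-0.74), with 15500 in Δhog1 and 26600 in wild type, PRE5 (-0.65), with 14600 and 23500, and RPN10 (-0.50), with 20500 and 29300. The highest were those of RPN9 (0.33), RPN8 (0.25) and the beta ring gene PRE3 (0.21). The comparisons of Δhog1 over wild type and those of osmotic shock within Δhog1 share libraries, so their folds are not independent. With input subtracted, 17 of the 33 were 2-fold lower in shocked Δhog1 cells than in shocked wild-type cells, with a median of -1.001. The share of all ORFs with input subtracted is not given here, so this count cannot be set against the shares above.

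Δsko1Δhot1 cells were close to wild type in the median over the proteasome ORFs, but not evenly by place in the complex. In mock-treated cells the median log2 fold of Δsko1Δhot1 over wild type was -0.02 for the 33 ORFs and 0.16 for all ORFs, and 10 of the 33 were above the median of all ORFs. None was 2-fold higher or lower, where 0.2% and 0.399% of all ORFs were, and at these shares that is not a result about the 33. The alpha ring median was -0.14, the beta ring median -0.10, the base median 0.02 and the lid median 0.19. This is the same order as for Δhog1 over wild type, and both comparisons share the wild-type library. The lowest folds were again those of RPN10 (-0.47), PRE6 (-0.43) and PUP3 (-0.39), and the highest those of RPN3 (0.33), RPN14 (0.31) and RPN13 (0.24). In osmotic shock the median was 0.00 for the 33 and 0.04 for all ORFs. None was 2-fold higher or lower, where 1.48% and 1.16% of all ORFs were, which again is not a result about the 33. The lowest folds there were those of PRE6 (-0.37), RPN10 (-0.36) and PUP3 (-0.36). The highest was that of RPN12 (0.40), with 14400 in Δsko1Δhot1 and 10700 in wild type, followed by RPN8 (0.32) and RPN3 (0.32).

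Some proteasome ORFs had a neighbour with a larger log2 fold in osmotic shock than their own, and those named below are picked examples. In the R64 reference, 61 ORFs next to a member could be tested, counted once for each member they adjoin. Of these, none was 2-fold higher in osmotic shock in Δhog1, 3 were in Δsko1Δhot1 and 3 were in wild type, and 0, 3 and 2 were 2-fold lower. Of all ORFs, 1.01%, 6.19% and 4.49% were higher and 0.0665%, 7.97% and 7.73% lower, so the neighbours as a group were near the background. Their median log2 fold was 0.05 in Δhog1, 0.04 in Δsko1Δhot1 and 0.10 in wild type, below the 0.25, 0.22 and 0.25 of the members. HXK1, the hexokinase gene beside RPN12, had 5940 in shocked and 7760 in mock-treated Δhog1 cells, 190000 and 11300 in Δsko1Δhot1 cells, and 160000 and 6430 in wild-type cells. RPN12 itself had 9170 and 9440 in Δhog1, 14400 and 9010 in Δsko1Δhot1, and 10700 and 7800 in wild type, so that it was higher in osmotic shock in the strains where HXK1 was. YMR315W, beside PRE5, had log2 folds of 0.10 in Δhog1, 1.87 in Δsko1Δhot1 and 1.34 in wild type, while PRE5 had nearly the same fold in all 3 strains. ENO1, the enolase gene beside PUP2, had 0.34, 0.78 and 1.30, while PUP2 had 0.25, 0.06 and -0.04. The part of neighbouring ORFs in the signal of the members was not tested.

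Hog1 joins Pol II over stress genes in osmotic shock, and its signal over the proteasome ORFs and RPN4 was read by criteria that few ORFs meet. An ORF was counted as occupied if it lay more than 3 SD above the median of all ORFs in each of 3 measures: Hog1 minus mock IP over input, the ratio of Hog1 in shocked over mock-treated cells, and the Hog1 signal itself. Of the 33 ORFs and RPN4, 0 met all 3 measures in Δsko1Δhot1 and 0 in wild type, where 7 and 32 of the 6013 ORFs did (0.116% and 0.532%), and 0 met any of them. At these shares 0 of 34 is not a result about these ORFs. The median enrichment over input of the 33 in osmotic shock was 0.26 in Δsko1Δhot1 and 0.55 in wild type, against 0.18 and 0.50 for all ORFs, and the cutoff was 1.87 and 1.58. The enrichment of RPN4 was 0.32 in shocked and 0.10 in mock-treated Δsko1Δhot1 cells, and 0.73 and 0.58 in wild-type cells. The Hog1 signal over RPN4 was 14500 in shocked and 12100 in mock-treated Δsko1Δhot1 cells, and 19300 and 17200 in wild-type cells, while the mock IP in wild type had 10800 and 11000.

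The Hog1 signal of the proteasome ORFs differed little between shocked and mock-treated cells. The median log2 fold of the 33 was -0.16 in Δsko1Δhot1 and 0.02 in wild type, against -0.04 and -0.03 for all ORFs. None was 2-fold higher, where 1.21% of all ORFs were in Δsko1Δhot1 and 0.815% in wild type, and none 2-fold lower, where 0.316% and 0.2% were. At these shares 0 of 33 is not a result about the proteasome ORFs. In Δsko1Δhot1 all 7 alpha ring ORFs were below 0, with a median of -0.30, and the lid median was 0.06. The lowest folds there were those of PUP3 (-0.45), PRE6 (-0.41) and PUP2 (-0.35), and the highest those of RPN12 (0.32), RPN3 (0.24) and PRE3 (0.22). In wild type the highest were those of RPT1 (0.22), PUP2 (0.20) and PUP1 (0.19), and the lowest after PRE3 those of PRE9 (-0.18) and RPN11 (-0.16). PRE3 had the lowest (-0.52). It had 23600 in shocked and 34300 in mock-treated cells and was the highest of the 33 in both Hog1 libraries of wild type. PRE3 was also the highest of the 33 in the mock IP, with 12400 in shocked and 17300 in mock-treated cells, while its Rpb3 signal in wild type was 11800 and 9040, below the median of the 33.

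Other genes of the ubiquitin and proteasome system were taken from 3 lists with 36 genes in all, each of which was tested. The assembly and accessory list has 14 genes, of which 0 were 2-fold higher and 0 lower in osmotic shock in Δhog1, 0 and 2 in Δsko1Δhot1, and 0 and 2 in wild type. Of all ORFs, 1.01% and 0.0665%, 6.19% and 7.97%, and 4.49% and 7.73% were. Its median log2 fold was -0.02, -0.18 and -0.03. The 2 that fell were POC4 and CIC1. POC4, an assembly chaperone gene, had 45700 in shocked and 51200 in mock-treated Δhog1 cells, 17500 and 69800 in Δsko1Δhot1 cells, and 17100 and 117000 in wild-type cells (log2 folds -0.16, -1.94 and -2.71). A small nucleolar RNA gene, SNR17B, lies next to it in the R64 reference, and its part in the signal of POC4 was not tested. CIC1, which is also an assembly factor of the large ribosomal subunit, had 8540 in shocked and 11400 in mock-treated Δhog1 cells, 2930 and 10700 in Δsko1Δhot1 cells, and 2810 and 8070 in wild-type cells (-0.38, -1.57 and -1.25). In shocked cells both were 2-fold higher in Δhog1 than in wild type, with log2 folds of 1.37 for POC4 and 1.33 for CIC1. ECM29, which encodes a protein that holds core and regulatory particle together, had the highest fold of the list in wild type, 0.67.

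The list of ubiquitin and delivery genes, also 14 in number, had a median log2 fold of 0.24 in Δhog1, 0.34 in Δsko1Δhot1 and 0.35 in wild type, and 0, 2 and 1 of its genes were 2-fold higher and none 2-fold lower, where 1.01%, 6.19% and 4.49% of all ORFs were higher, so that 1 of 14 in wild type is near that share. UBI4, the stress-inducible polyubiquitin gene, had 14800 in shocked and 13800 in mock-treated Δhog1 cells, 41600 and 11200 in Δsko1Δhot1 cells, and 36100 and 14100 in wild-type cells (0.09, 1.80 and 1.30). In shocked cells its log2 fold of Δhog1 over wild type was -1.23, past 2-fold. CDC48, the ATPase that extracts ubiquitinated proteins, had 16400 in shocked and 12100 in mock-treated Δhog1 cells, 32800 and 15100 in Δsko1Δhot1 cells, and 28000 and 17400 in wild-type cells (0.41, 1.07 and 0.66). HNT1, on one side of CDC48, had log2 folds of 0.86 in Δhog1, 2.08 in Δsko1Δhot1 and 1.49 in wild type, and PCL2, on the other, had 1.63, 0.19 and -0.21, and their part in the signal of CDC48 was not tested. DSK2, a shuttle for ubiquitinated proteins, was 2-fold lower in Δhog1 than in wild type in mock-treated cells, with 8060 and 25600 (-1.55), as was POC4 (-1.18).

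The list on the control of Rpn4 has 8 genes. They encode ubiquitin ligase proteins, a ubiquitin-conjugating enzyme (RAD6) and transcription factors known to act on RPN4 or Rpn4. UBR1, a relative of UBR2, is also on the list. None of the 8 was 2-fold higher or lower in any of the 7 comparisons of Rpb3, where between 0.0665% and 7.97% of all ORFs were in a direction, so that 0 of 8 is not a result about the list. Their median log2 fold in osmotic shock was 0.02 in Δhog1, 0.01 in Δsko1Δhot1 and 0.12 in wild type. The highest fold in Δhog1 was that of PDR3 (0.32), a regulator of drug resistance genes, with 14900 in shocked and 11700 in mock-treated cells, and the lowest was that of UBR2 (-0.22), part of a ubiquitin ligase for Rpn4, with 4870 and 5850.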

How the data were processed

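The authors deposited a coverage signal per ORF for each library, which they name RPKM. Per the file headers and the labels, reads were aligned with Bowtie to sacCer2 (with ELAND according to the supplement, versions not given in the sources used here), tags were extended, and parts of ORFs shared with another ORF were left out. The signal is taken here as covered bases, scaled to ORF length and library total, an inference from its size. Of 6334 rows, 4 that share a name were dropped. ORFs in the lowest 5% by input signal were then excluded from every comparison. The study used a like filter, on input reads, only for Hog1-occupied ORFs. The log2 fold is that of the signal plus 996, which is 0.1 times the median mock-treated input, and understates changes at low signal. Names of 4 list genes and the order of neighbouring genes came from RefSeq R64, a build other than that of the files, so no coordinates are given. Python 3.11.15, numpy 2.4.6, pandas 2.3.3 and matplotlib 3.10.9 were used. The fold was tested on simulated data with changes of 4-fold only, so that test does not cover the smaller changes of the members. The members, lists and tests were chosen with earlier results of these data known. Genes were named by a rule: RPN4, HOG1 and HOT1, the 3 highest and 3 lowest members and every member past 2-fold in each comparison, the 2 highest and 2 lowest levels, and of each list the genes past 2-fold or its ends. OSH2, GPM2, HNT1, PCL2, HXK1, YMR315W, ENO1, SNR17B, PRE1 and others outside it were named after their values were seen. Promoter and downstream tables, whose column headings were in doubt, and the Sko1 and Hot1 peaks, which carry no gene names, were not used here.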

Additional observations from a re-analysis of the deposited data

Results flagged for a closer look

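No proteasome ORF of the 33, and not RPN4, had osmotic shock folds of opposite sign in 2 strains that both exceeded the spread between the input libraries (0.17). Of the 36 genes on the 3 lists, 6 did (16.7%), where 22.0% of all ORFs did, so the lists do not stand out. With 1 library per condition, none of these differences was tested. UMP1, a maturation factor of the core particle, had a log2 fold of 0.45 in Δhog1, -0.23 in Δsko1Δhot1 and -0.32 in wild type. RAD23, a shuttle for ubiquitinated proteins, had 0.27 in Δhog1, -0.26 in Δsko1Δhot1 and -0.36 in wild type. DSK2 had 0.49 in Δhog1 and -0.25 in Δsko1Δhot1. In wild type, where mock IP and input were made, the mock IP log2 fold was 0.41 for UMP1, 0.39 for RAD23 and 0.90 for DSK2, and the input log2 fold of DSK2 was 0.53. The part of these in the Rpb3 folds was not tested. SEM1, a small lid subunit outside the naming rule, had 0.26 in Δhog1 and -0.38 in Δsko1Δhot1. HUL5, a ubiquitin ligase of the proteasome, had -0.22 in Δhog1 and 0.58 in wild type, and UBR2 had -0.22 and 0.20.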

How the results depend on the processing

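No paired analysis was possible because each condition has 1 library, and for the same reason no replicate could be left out. Of 241 values under another setting, 213 stayed within the spread between the input libraries (for a count, within 1.5 times), and 28 moved. Of the 241, 1 changed sign: the median Hog1 log2 fold of the 33 in wild type, 0.02, became -0.04 when divided by mock IP. Without a pseudocount, divided by input (which cancels between strains within a condition) or by mock IP (apart from that sign), centred on the median of all ORFs, scaled by a trimmed mean, without the filter on input, without RPN14, and with the other Hog1 criteria none moved. Subtracting input moved 22. The median log2 fold of osmotic shock then became 0.90 in Δhog1, 0.43 in Δsko1Δhot1 and 0.42 in wild type, with 14, 11 and 5 of the 33 ORFs 2-fold higher and 2 lower in Δsko1Δhot1. RPN4 became 1.23, 2.34 and 0.69. The median of Δhog1 over wild type became -1.33 in mock-treated cells, with 1 ORF 2-fold higher and 20 lower, and -1.001 in osmotic shock, with 17 lower. Δsko1Δhot1 over wild type in osmotic shock gave 2 higher and 3 lower, and RPN4 became 0.60 for Δhog1 and 1.44 for Δsko1Δhot1 over wild type. The log2 ratio of shares, shocked over mock-treated, became 1.57 in Δhog1, 0.39 in Δsko1Δhot1 and 0.49 in wild type, from 0.22, 0.20 and 0.23. ORFs near input then count as changed by a small move. The counts with input subtracted have no share of all ORFs beside them, so they do not show whether the proteasome ORFs stand out. With a pseudocount of 0.5 times the median input, RPN4 in Δsko1Δhot1 became 1.01 and 1 ORF, not 3, was 2-fold lower in mock-treated Δhog1. At 1.5-fold the counts became 3 higher in Δhog1 and 2 in Δsko1Δhot1 in osmotic shock, and for Δhog1 over wild type 7 lower in mock-treated cells and 2 in osmotic shock. Alternatives on promoter Hog1 and on the promoter element of Rpn4 were not run. Among the libraries used, depth is given only for those of Hog1, as a range of reads. How far counting error reaches is therefore not known.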

Other observations

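PRE3 is named YJL001W, the first ORF on its side of a centromere, and 31 such ORFs, numbered 001 on their chromosome arm, were kept. This group was chosen after the values of PRE3 were seen. In the mock IP of mock-treated cells all 31 were above the median of all ORFs, with a median of 12100 against 7690, and 6 of them were above PRE3 at 17300. In the mock IP of shocked cells 29 of 31 were above, with a median of 9330 against 7930. In the Hog1 library of mock-treated wild-type cells 30 of 31 were above, with a median of 19000 against 13400, and PRE3 was the highest of them at 34300. In the Hog1 library of mock-treated Δsko1Δhot1 cells 14 of 31 were above, with a median of 9910 against 10100, and PRE3 had 12700. The input of mock-treated cells had a median of 10700 over the 31 ORFs against 9960 over all.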
